A study of Mus musculus with 11 samples.

Results

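The platelet-derived growth factor (PDGF) family is described here in single cells of mouse perigonadal white fat (pgWAT). It comprises the ligand genes Pdgfa, Pdgfb, Pdgfc and Pdgfd and the receptor genes Pdgfra and Pdgfrb. The members were the rows of the count table that carried these symbols, 6 of 23507 gene rows, and each had reads in part of the 3261 cells. Pdgfra (10024 bases of exon, chromosome 5, 75152292 to 75198215, plus strand) had reads in 2431 cells. Pdgfrb (5478 bases, chromosome 18, 61045150 to 61085061, plus strand) had reads in 2518 cells. Among the ligands, Pdgfd (3154 bases, chromosome 9, 6168584 to 6378850, plus strand) was read in 1257 cells and Pdgfb (4161 bases, chromosome 15, 79995874 to 80014977, minus strand) in 414 cells. Pdgfa (3119 bases, chromosome 5, 138976014 to 138997370, minus strand) and Pdgfc (5089 bases, chromosome 3, 81036416 to 81214040, plus strand) were each read in 322 cells. All 6 are protein-coding genes, and the positions are those of the mm10 mouse genome in the GENCODE vM21 annotation.

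PDGFs are secreted as dimers that bind and pair receptor tyrosine kinases at the cell surface. The A and C chains act mainly through the alpha receptor, the B chain binds both receptors, and the D chain acts mainly through the beta receptor. The C and D chains are released with an extra domain and must be cut by proteases such as plasminogen activators before they can bind. In blood vessels, endothelial PDGF-B recruits pericytes and smooth muscle cells, which carry the beta receptor. The alpha receptor is a widely used marker of fibroblasts and of the progenitors of fat cells.

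The cells were the stromal vascular fraction, that is the cells of fat other than floating adipocytes, of adult male and female chow-fed mice. Every animal carried the Tg(Pdgfrb-eGFP) reporter, in which Pdgfrb regulatory sequence drives green fluorescent protein, on the C57BL6/J background, and the labels name no treatment. CD45-negative single cells were sorted into wells of 11 plates by the reporter (PDGFRB-positive or -negative), by the endothelial surface protein CD31 and on some plates by DPP4, and each cell was sequenced with Smart-seq2. Mice 1, 4 and 8 were male and mice 2, 3, 5 and 6/7 female, where 6/7 is a label that joins 2 animal numbers and was counted as 1 mouse. Every plate held cells of 1 mouse label, so that across mice the plate and the mouse cannot be told apart, and p-values measure the spread between these mice. Because Pdgfrb drives the reporter that was sorted on, the sort itself shaped which Pdgfrb levels could be seen. Plate 709 is labelled as sorted for PDGFRB and DPP4, but its column names read differently for the PDGFRB gate, so results were also computed without it.

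Cells had 141935 to 3526227 reads in genes, with a median of 616939. Clustering without the 6 genes gave 2250 adipose stem cell-like (ASC-like) cells, which carry the fibroblast genes Col1a1, Col1a2, Dcn and Lum, and 560 blood endothelial-like (EC-like) cells. It also gave 60 pericyte-like, 41 vascular smooth muscle-like (VSMC-like), 137 macrophage-like, 22 lymphatic endothelial-like and 19 epithelial-like cells, while 172 cells in clusters led by adipocyte or mitochondrial genes were left unnamed. The 4 ASC markers summed to between 27766 and 55298 CPM in the ASC-like cells of each mouse and to between 29.1 and 104 CPM in EC-like cells. CPM stands here for a gene's read count scaled to the reads of all protein-coding genes, after summing the cells of a class in 1 mouse. Ribosomal RNA was kept out of this base because it took 24.3% to 52.5% of the reads of ASC-like cells, most in mice 1, 5 and 8.

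The receptors divided the cell classes. Pdgfra, the alpha receptor, was high in ASC-like cells of all 7 mice, with a lowest level of 323 CPM, a median of 519 CPM and a highest level of 823 CPM (mean 533 ± 148 CPM, SD, n = 7). In EC-like cells Pdgfra lay at 2.16, 0.170, 0.419, 1.00 and 2.34 CPM in mice 1, 2, 5, 6/7 and 8. The 2 groups were far apart, and no mouse came near the other class. In the paired comparison of 5 mice by edgeR's quasi-likelihood test, Pdgfra was higher in ASC-like cells by 9.44 ± 0.66 on the log2 scale (SE, adjusted p = 7.63e-05). The 10 adipocyte genes used as a check summed to 2505 to 5385 CPM in EC-like and 4.49 to 78.3 CPM in ASC-like cells, and their part in the differences was not tested. In this comparison 22.7% of 12203 genes were called, meaning an adjusted p below 0.05 and a fold change above 2.6, and 3 of the 6 PDGF genes were among them. The test took genes above 600 reads in 2 sums, and these 3 (Pdgfra, Pdgfrb and Pdgfb) passed only through the class where they were high. The other class held at most 66 reads of Pdgfra, 266 of Pdgfrb and 10 of Pdgfb in a mouse. Their calls and p-values are therefore given beside the levels and not as separate support. The median log2 fold change of the 6 was 2.96 against 0.20 over all genes tested. By CPM over all genes with TMM factors, 2885 of the 12203 genes had no overlap between the 2 classes.

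Pdgfrb, the beta receptor, had 151.8, 599 and 791 CPM as the lowest, median and highest levels in ASC-like cells (mean 515 ± 223 CPM, SD, n = 7), and the lowest mouse was mouse 5. EC-like cells had 5.01, 2.83, 0.210, 3.94 and 5.02 CPM in mice 1, 2, 5, 6/7 and 8. Pdgfrb was higher in ASC-like cells by 7.44 ± 0.43 on the log2 scale (SE, adjusted p = 4.23e-05), in 5 of 5 mice. In mice 1, 2 and 6/7 the ASC-like cells came nearly all from PDGFRB-positive wells. Of the EC-like cells, 169 of 170 in mouse 2 and 137 of 138 in mouse 6/7 came from PDGFRB-negative wells, and 174 of 177 in mouse 1 from the CD31-positive plate. In mice 2 and 6/7 the gate itself favoured this direction, so for Pdgfrb the call is in part a check of the gate. Both receptor calls held in all 16 alternative settings, which share these sorts. In mice 5 and 8 the ASC-like and EC-like cells came from the same plates, although the plate of mouse 8 held both a PDGFRB-positive and a CD31-positive sort. The levels were again far apart there, with 323 against 0.419 CPM of Pdgfra and 151.8 against 0.210 CPM of Pdgfrb in mouse 5, and 519 against 2.34 CPM and 791 against 5.02 CPM in mouse 8. Plate 43 of mouse 6/7 also held both classes, in wells of different sorts. Its 49 ASC-like and 137 EC-like cells had 503 against 0.912 CPM of Pdgfra and 299 against 3.71 CPM of Pdgfrb.

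Mural cells, the pericytes and smooth muscle cells that wrap vessels, showed Pdgfrb with less Pdgfra than ASC-like cells. Pericyte-like cells had 2013 CPM of Pdgfrb in mouse 1 (44 cells) and 1009 CPM in mouse 2 (13 cells), both above every ASC-like value. Their Pdgfra was 32.7 CPM in mouse 1, and no read was found in mouse 2. That level depended on the cells taken, since over all mice it was 142 CPM in the 15 pericyte-like cells without endothelial markers and 1.82 CPM in the 45 with them. The 142 CPM came from 211 reads, all in 13 cells of mouse 1, of which 4 kept a read after thinning to 100000 reads. Among the 44 pericyte-like cells of mouse 1, 5 cells held 89.8% of the Pdgfra reads, and the level without them was 3.72 CPM. The 38 VSMC-like cells of mouse 1 had 560 CPM of Pdgfrb, inside the ASC-like range, and 7.95 CPM of Pdgfra. In macrophage-like cells of mice 1 and 5, Pdgfra was at 0.193 and 0.511 CPM and Pdgfrb at 2.99 and 0.384 CPM. Sorted by mean Pdgfrb level, the order was pericyte-like, VSMC-like, ASC-like, EC-like and macrophage-like, where the ranges of VSMC-like and ASC-like cells and those of EC-like and macrophage-like cells overlapped.

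**Figure D1:**
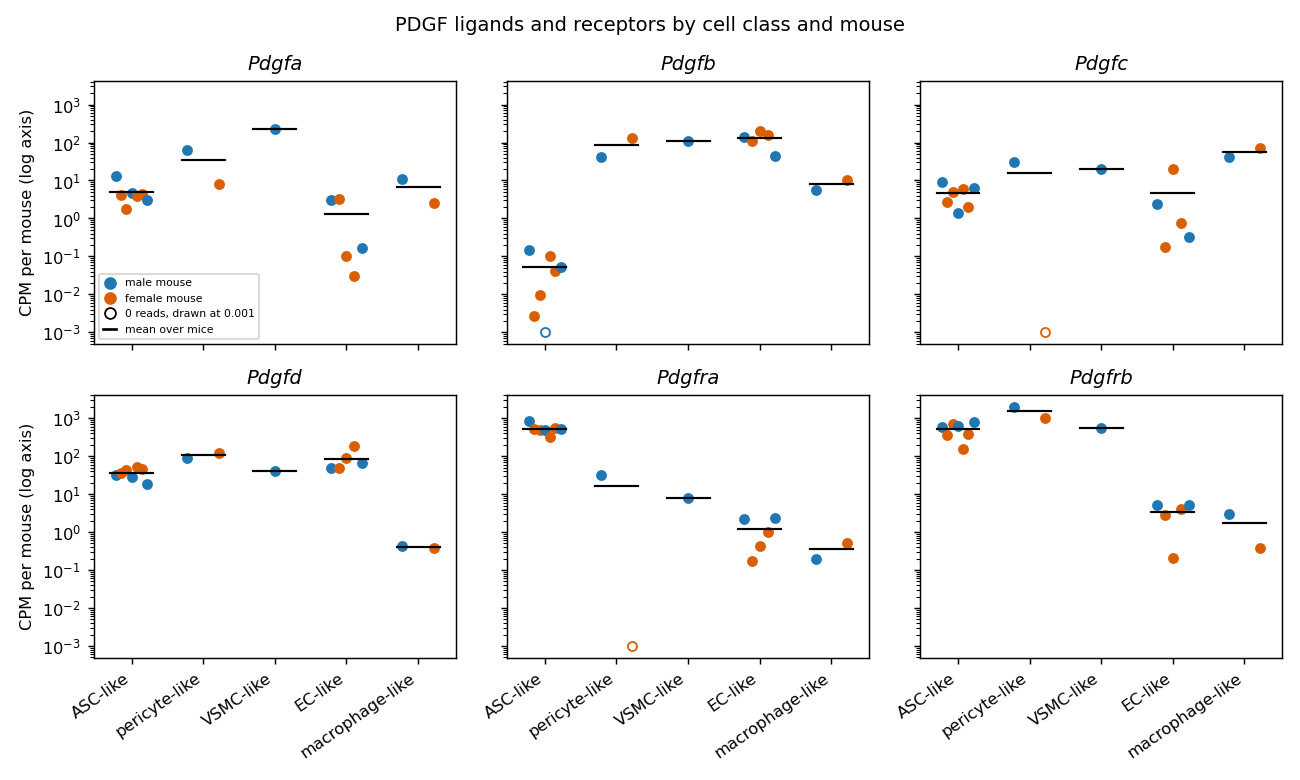
CPM of each PDGF gene (y axis, log scale) in 5 cell classes (x axis), where each point is 1 mouse, colour gives the sex, a bar the mean over mice, and an open circle a sum with 0 reads drawn at 0.001. Pdgfra sits between 323 and 823 CPM in ASC-like cells and at or below 2.34 CPM in EC-like cells, and Pdgfb shows the opposite order.

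Only mice 1 and 2 had at least 10 mural-like cells, so tests against mural-like cells rest on 2 mice. Those of mouse 2 were its 13 pericyte-like cells. In these, Pecam1, Cdh5, Kdr and Cldn5 summed to 8040 CPM and the pericyte genes Kcnj8, Abcc9, Rgs5 and Higd1b to 5713 CPM. In the pericyte-like cells of mouse 1 the sums were 2719 and 7851 CPM. Classed by each cell's own markers, 34 of the 60 pericyte-like cells kept that class. Between EC-like and mural-like cells, Pdgfrb was lower in EC-like cells by 8.38 ± 0.53 on the log2 scale (SE, adjusted p = 0.0202), the 1 call among 3 PDGF genes tested, where 0.988% of 7287 genes were called. It passed the count filter through the mural-like sums alone, since the EC-like sums held 153 and 266 reads. In mouse 1 the 2 classes came mostly from different sorts, and in mouse 2 from the same plate. Between ASC-like and mural-like cells, Pdgfra differed by 8.18 ± 2.51 (adjusted p = 0.275) and Pdgfrb by -1.22 ± 0.42 (adjusted p = 0.324). None of the 6 genes was called there, and the background was 0% of 9701 genes by edgeR's quasi-likelihood test, although 1373 genes and 3 of the 6 members (Pdgfb, Pdgfra and Pdgfrb) passed 0.05 before adjustment. With edgeR's likelihood ratio test 1018 genes were called, with DESeq2 1387, and with either of them Pdgfra and Pdgfb were among the calls.

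The balance of the receptors was compared per kilobase of exon. In ASC-like cells Pdgfrb reached 94.0 and Pdgfra 53.2 CPM per kilobase as means over 7 mice. The ratio of Pdgfrb to Pdgfra per kilobase was 1.33, 1.26, 2.57, 2.27, 0.859, 1.29 and 2.79 in mice 1, 2, 3, 4, 5, 6/7 and 8. Per kilobase Pdgfrb was the higher receptor in 6 of the 7 mice, and mouse 5 was the exception. This order rests on the exon lengths, since by CPM Pdgfrb exceeded Pdgfra in mice 3, 4 and 8 only, and most of these cells were sorted on the Pdgfrb reporter. In pericyte-like cells the means were 276 CPM per kilobase for Pdgfrb and 1.63 for Pdgfra.

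Next, it was asked whether single cells held both receptors. Every cell was thinned to 100000 reads in genes, and a receptor counted as detected at 1 read. Of 2250 ASC-like cells, 2074 (92.2%, exact 95% interval 91.0 to 93.3) held both, 83 Pdgfra only, 72 Pdgfrb only and 21 neither. Detection was near complete for each gene alone, 95.9% for Pdgfra and 95.4% for Pdgfrb, so that the product of the shares, 91.4%, lay close to the observed share. Without thinning 97.9% held both. EC-like cells served as the background and gave 3.04% with Pdgfra and 5.89% with Pdgfrb after thinning, and 4 of 560 with both. This background differed by mouse, up to 13.8% for Pdgfra and 17.2% for Pdgfrb in the 29 EC-like cells of mouse 8. Only 3 EC-like cells came from plate 172, which held most mural-like cells. Of all 2123 cells with both receptors, 97.7% were ASC-like.

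Pericyte-like and VSMC-like cells had a different receptor state from ASC-like cells. In 46 of 60 pericyte-like cells and 34 of 41 VSMC-like cells Pdgfrb was read without Pdgfra, and no cell of either class had Pdgfra alone. Both receptors were read in 11 pericyte-like cells (18.3%, 9.52 to 30.4) and 6 VSMC-like cells (14.6%, 5.57 to 29.2). These double cells included 10 pericyte-like and 5 VSMC-like cells of mouse 1 and none of the 13 pericyte-like cells of mouse 2, where 0 of 13 allows up to 24.7%. Depth set much of this share, since without thinning it was 41.7% of pericyte-like and 70.7% of VSMC-like cells, and at 50000 protein-coding reads a cell, a depth chosen after the data were seen, it was 36.6% and 39.5% in mouse 1. On plate 172, Pdgfra was read after thinning in 25.6% of 39 pericyte-like and 13.5% of 37 VSMC-like cells. The 19 epithelial-like cells of that plate lay between them, with Pdgfra in 4 cells (21.1%, 6.05 to 45.6). The 4 ASC markers summed to 1228 CPM in the pericyte-like cells of mouse 1 and to 793 CPM in those of mouse 2. Their part in the double detection was not tested. Intervals cover counting error only, since reads without molecular identifiers are not independent molecules.

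**Figure D2:**
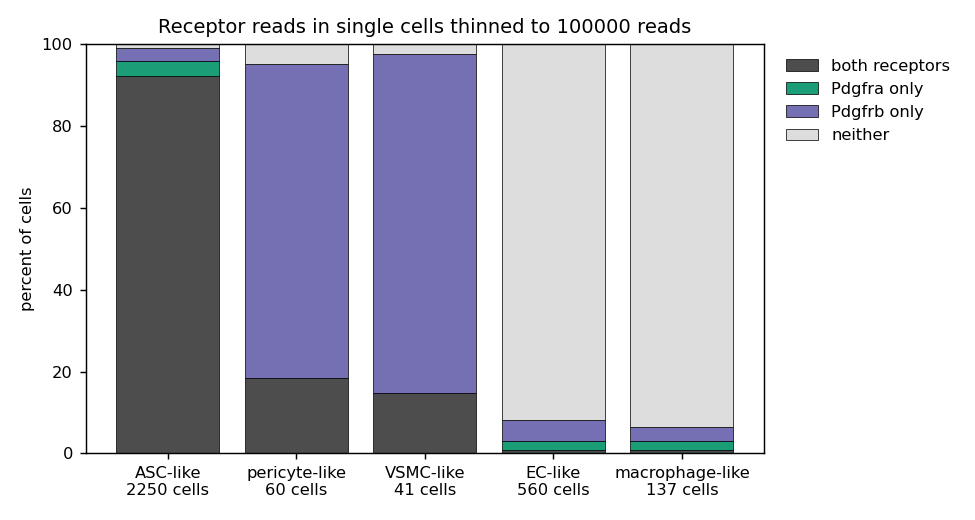
Percent of cells (y axis) with reads of both receptors, Pdgfra only, Pdgfrb only or neither after thinning each cell to 100000 reads, in 5 classes (x axis, with cell numbers). Both receptors were read in 92.2% of ASC-like cells, Pdgfrb alone in 76.7% of pericyte-like and 82.9% of VSMC-like cells, and neither in 91.8% of EC-like cells.

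The share of ASC-like cells with both receptors varied by mouse. It was 82.8%, 99.4% and 96.3% in male mice 1, 4 and 8, and 95.9%, 91.9%, 56.7% and 92.3% in female mice 2, 3, 5 and 6/7. Mouse 5 stood apart, since 33 of its 104 ASC-like cells had Pdgfra only. The sexes overlapped, and the male mean of 92.8 ± 8.8% (SD, n = 3) exceeded the female mean of 84.2 ± 18.4% (SD, n = 4) by 8.64 percentage points, which did not pass a two-sided exact permutation test (p = 0.629, where 3 against 4 mice cannot go below 0.0571). Without mouse 5 the difference was -0.51 points. Ribosomal RNA leaves fewer informative reads in some mice, and when cells were instead thinned to 50000 protein-coding reads, an alternative chosen after the data were seen, the share was 91.7% in mouse 1 and 59.6% in mouse 5.

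The sort could be followed in the receptor reads. On plates and wells sorted as PDGFRB-positive, 88.3% of 2387 cells had Pdgfrb reads after thinning, 86.8% had Pdgfra reads, and 82.4% had both. Wells sorted as PDGFRB-negative were all sorted as CD31-positive too, and 0 of their cells were ASC-like. Among these 405 cells, 6.91% had Pdgfrb reads, 3.95% had Pdgfra reads, and 0.247% had both. The CD31-positive plate of mouse 1, whose PDGFRB gate is not given, resembled the negative sort with 6.34% of 268 cells for Pdgfrb. Reads of both receptors thus differed between the sorts, but in the negative wells the reporter gate and the CD31 gate cannot be told apart. Those wells held 137 EC-like cells on plate 43 and 169 on plate 874. For Pdgfrb the difference is a check of the gate rather than a result, and for Pdgfra it cannot be credited to the reporter.

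Plates 843 and 874 held cells that differ from their sort labels. Plate 843 of mouse 5 is labelled PDGFRB-positive, yet 141 of its 253 cells had neither receptor, and it held 46 EC-like and 61 macrophage-like cells beside 104 ASC-like cells. Every mouse 5 value above comes from this plate. Conversely, plate 874 of mouse 2, sorted as PDGFRB-negative and CD31-positive, held 13 pericyte-like cells, all of them with endothelial markers. These had 1009 CPM of Pdgfrb, and 11 of the 13 had Pdgfrb reads after thinning, whereas the 169 EC-like cells of the plate had 2.75 CPM. On the same animal's PDGFRB-positive plates, no pericyte-like cell was found among 379 and 369 cells. The 73 macrophage-like cells of plate 171 (mouse 1) and the 61 of plate 843 came from a sort described as CD45-negative. Both plates of mouse 2 sorted by DPP4 were ASC-like almost throughout, and Pdgfra and Pdgfrb lay at 581 and 331 CPM on the DPP4-positive plate 709 and at 471 and 387 CPM on the DPP4-negative plate 875, with no replicate of that contrast.

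**Figure D3:**
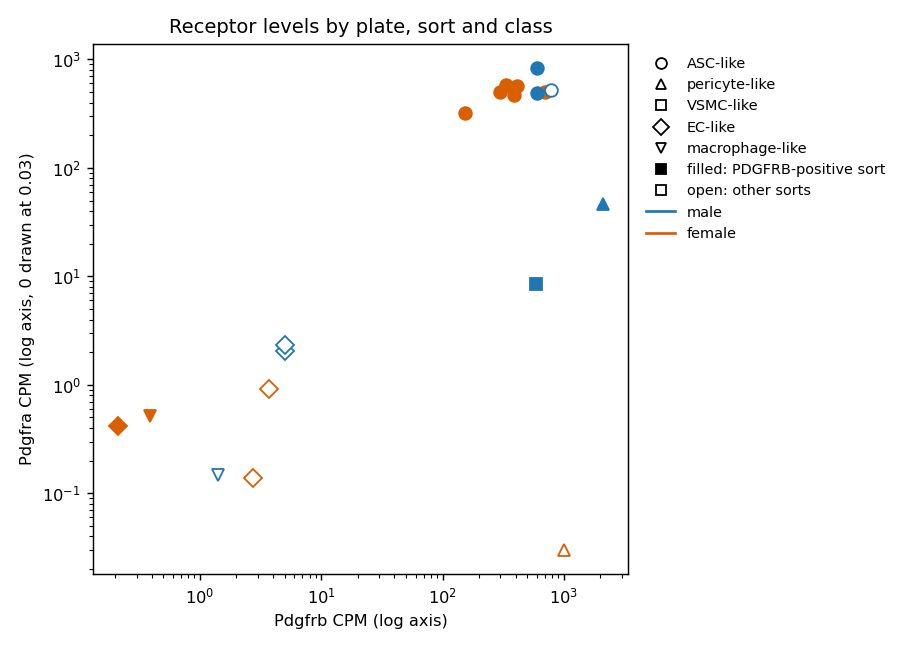
Pdgfra CPM (y axis) against Pdgfrb CPM (x axis), both on log axes, for each plate and class with at least 10 cells, where shape gives the class, filled symbols the PDGFRB-positive sort, open symbols other sorts, colour the sex, and 0 is drawn at 0.03. ASC-like sums are at the upper right, EC-like and macrophage-like sums at the lower left, and the open triangle is the pericyte-like sum of PDGFRB-negative plate 874 with 1009 CPM of Pdgfrb and no Pdgfra read.

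Among the ligands, Pdgfb, the B chain, was a transcript of endothelial and mural classes. EC-like cells had 143, 111, 200, 157 and 44.0 CPM in mice 1, 2, 5, 6/7 and 8 (mean 131 ± 58 CPM, SD, n = 5). ASC-like cells held 23 Pdgfb reads in all 2250 cells, with 10, 1, 1, 0, 3, 5 and 3 reads in mice 1, 2, 3, 4, 5, 6/7 and 8, and a highest level of 0.149 CPM. Pdgfb was lower in ASC-like cells in 5 of 5 mice (adjusted p = 1.43e-04). Its fitted log2 fold change of -11.1 ± 0.92 (SE) depends on the prior count given to so few reads and is no bound, so the levels are the better measure. After thinning, 33.8% of EC-like cells and 0.0889% of ASC-like cells had a Pdgfb read.

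Mural-like cells also had Pdgfb reads, beside endothelial transcripts. Pericyte-like cells had 40.8 CPM in mouse 1 and 128 CPM in mouse 2, and VSMC-like cells of mouse 1 had 109 CPM, and against EC-like cells Pdgfb differed by 0.26 ± 0.49 on the log2 scale (EC-like minus mural-like, adjusted p = 0.914). All 5 endothelial markers (Pecam1, Ptprb, Cdh5, Tie1 and Cldn5) had reads in the pericyte-like cells of both mice, with sums of 3288 and 8489 CPM against 7449 to 13614 CPM in EC-like and 46.0 CPM in VSMC-like cells. The 45 pericyte-like cells with at least 10 reads of these markers had 96.8 CPM of Pdgfb, and the 15 without had 2 reads, or 1.34 CPM. The cells without markers were shallower, with a median of 336776 against 797994 reads, and had 3425 against 1256 CPM of Pdgfrb. In VSMC-like cells the same split gave 63.7 CPM in 10 cells with and 100.5 CPM in 31 cells without the markers. In mouse 1 alone the pericyte-like split gave 48.1 CPM in 31 cells with and 1.78 CPM in 13 cells without the markers. All 13 pericyte-like cells of mouse 2 had them. Pdgfb thus went with endothelial markers in pericyte-like cells and not in VSMC-like cells, but on few cells. In pericyte-like cells 5 cells held 93.2% and 89.9% of the Pdgfb reads in mice 1 and 2, and in VSMC-like cells 65.8% in mouse 1. Of the 10 VSMC-like cells with the markers, 2 kept a read after thinning.

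Pdgfd, the D chain, was read in more cells than any other ligand over all classes, most of them ASC-like, whereas other ligands were read more often in EC-like (Pdgfb), VSMC-like (Pdgfa) and macrophage-like cells (Pdgfc). ASC-like cells had a lowest level of 18.2, a median of 35.3 and a highest level of 52.3 CPM over 7 mice, and EC-like cells had 47.9, 48.4, 87.8, 180 and 67.4 CPM in mice 1, 2, 5, 6/7 and 8. The ranges overlapped, although EC-like cells were higher in 5 of 5 mice, and the log2 difference of -0.95 ± 0.33 (ASC-like minus EC-like, SE) was not called (adjusted p = 0.0733). Pericyte-like cells had 88.4 and 121 CPM in mice 1 and 2, and VSMC-like cells 39.4 CPM. Split by endothelial markers, the pericyte-like cells had 114 CPM of Pdgfd with them and 13.4 CPM, from 20 reads, without. Macrophage-like cells held 9 and 6 reads, at 0.433 and 0.384 CPM, so that this class was the low end of the order.

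Pdgfa, the A chain, was highest in VSMC-like cells. The 38 VSMC-like cells of mouse 1 had 230 CPM, and 73.7% of them kept a read after thinning. Few cells carried much of it, since 5 cells held 67.4% of the reads and the level without them was 94.5 CPM, and the 37 cells on plate 172 alone had 142 CPM. Pericyte-like cells followed with 62.2 and 8.10 CPM in mice 1 and 2, and here the 15 cells without endothelial markers were at 61.0 CPM and the 45 with them at 27.5 CPM. ASC-like cells ranged from 1.77 through a median of 4.12 to 13.1 CPM, and the highest mouse was mouse 1. The 4 VSMC markers summed to 335 CPM in the ASC-like cells of that mouse and to 32.9 to 381 CPM in those of the others, and their part was not tested. EC-like cells had 3.01, 3.26, 0.105, 0.0312 and 0.167 CPM in mice 1, 2, 5, 6/7 and 8, from 92, 307, 1, 1 and 1 reads. The ASC-like cells were higher in 5 of 5 mice, with a log2 difference of 3.70 ± 1.18 (SE) and an adjusted p of 0.0548, just outside the threshold. The likelihood ratio test, DESeq2 and the fit without plate 709 called it, while with no block for mouse it was 2.29 (edgeR adjusted p = 0.159), with classes taken from each cell's own markers 1.55 (0.254), and without mouse 5, 8 or 6/7 between 2.89 and 3.42 (0.116 to 0.150). Without mouse 1 or 2 it did not pass the count filter.

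Pdgfc, the C chain, was highest in macrophage-like cells, at 40.4 and 70.6 CPM in mice 1 and 5, with reads in 27.7% of the 137 cells after thinning. Few cells carried much of it, since 5 cells held 72.0% and 67.6% of the reads, and the levels without them were 12.7 and 26.0 CPM. VSMC-like cells of mouse 1 had 20.6 CPM, and pericyte-like cells 31.1 CPM in mouse 1 and no read in mouse 2. In these 2 classes of mouse 1, 5 cells held 99.3% and 98.7% of the reads. ASC-like cells ranged from 1.43 to 9.19 CPM with a median of 4.91 CPM. EC-like cells were at or below 2.36 CPM in 4 mice and at 20.1 CPM in mouse 5, where 5 cells held 97.9% of the reads. The EC-like cells of mouse 5 had 14.9 CPM of the 4 macrophage markers, within the 13.7 to 29.1 CPM of all EC-like sums. The ASC-like and EC-like groups overlapped, and the log2 difference of 2.23 ± 1.14 (SE) was not called (adjusted p = 0.204).

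Smaller classes are given as pooled values. The 22 lymphatic endothelial-like cells had 41.5 CPM of Pdgfa from 218 reads, in 3 cells after thinning, and 5.90 CPM of Pdgfb, and the other 4 genes had 2 to 7 reads. The 19 epithelial-like cells, all of mouse 1, had 32.1 CPM of Pdgfc. In the unnamed cells Pdgfb was at 212 CPM in mouse 2 and Pdgfra at 356 CPM in mouse 6/7, so these cells were no uniform class in PDGF genes.

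Per kilobase of exon, the leading ligand differed by class. In ASC-like cells the mean levels were 11.6 CPM per kilobase for Pdgfd, 1.61 for Pdgfa, 0.916 for Pdgfc and 0.0123 for Pdgfb. In EC-like cells Pdgfb reached 31.5 and Pdgfd 27.4 CPM per kilobase, while Pdgfc was at 0.935 and Pdgfa at 0.422. Pericyte-like cells had 33.1 for Pdgfd, 20.3 for Pdgfb, 11.3 for Pdgfa and 3.06 for Pdgfc. In the 15 of them without endothelial markers the values were 19.6 for Pdgfa, 4.25 for Pdgfd and 0.322 for Pdgfb. These rest on 91, 20 and 2 reads, with 5, 1 and 0 cells keeping a read after thinning, so they set no firm order. VSMC-like cells of mouse 1 had 73.7 for Pdgfa and 26.1 for Pdgfb. Macrophage-like cells were led by Pdgfc at 10.9 CPM per kilobase.

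Reads of ligands and receptors were then counted in the same cells. After thinning, 34.3% of ASC-like, 51.2% of EC-like, 61.7% of pericyte-like, 87.8% of VSMC-like and 43.1% of macrophage-like cells had a read of any ligand. A ligand and a receptor were read in the same cell in 33.7% of ASC-like, 56.7% of pericyte-like and 85.4% of VSMC-like cells, against 3.21% of EC-like and 1.46% of macrophage-like cells. Pdgfd with Pdgfrb was read in 616 of 2250 ASC-like cells and Pdgfb with Pdgfrb in 1. In EC-like cells of mouse 8, 5 cells held all 403 Pdgfd reads and 99.6% of the Pdgfb reads, so a level there is that of a few cells.

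ASC-like cells were divided within each mouse into ASC1a-like (Col15a1, G0s2, Cxcl14), ASC1b-like (Clec11a, Fmo2) and ASC2-like cells (Dpp4, Cd55, Arl4d). ASC1a is held to be the more committed state and the DPP4-carrying ASC2 the more stem-like one. Pdgfrb was lower in ASC2-like than in ASC1a-like cells in 7 of 7 mice. ASC1a-like cells had 894, 451, 880, 688, 192, 524 and 1118 CPM in mice 1, 2, 3, 4, 5, 6/7 and 8, and ASC2-like cells had 367, 272, 510, 452, 95.6, 298 and 594 CPM. The ranges overlapped between mice, but the paired log2 difference was -0.93 ± 0.09 (SE, adjusted p = 1.63e-04). It passed the adjusted p and not the fold limit of 2.6, and with no block for mouse its adjusted p was 0.507. In mouse 2 the DPP4 sort put ASC2-like cells almost wholly on plate 709, so that subtype and plate cannot be told apart there. Without that plate mouse 2 had too few ASC2-like cells and left the fit, which is then the same as leaving out mouse 2. In the remaining 6 mice the difference was -0.96 ± 0.10 (adjusted p = 7.91e-04). ASC1b-like cells had 161 to 733 CPM, between the other subtypes in all mice but mouse 8, where they were the lowest (531 against 594 CPM in ASC2-like cells), and were below ASC1a-like cells in 7 of 7 mice, with a log2 difference of -0.45 ± 0.11 (SE, adjusted p = 0.0664).

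Pdgfra did not follow this order. Its mean was 575 ± 218 CPM in ASC1a-like, 500 ± 131 CPM in ASC1b-like and 525 ± 127 CPM in ASC2-like cells (SD, n = 7). ASC2-like cells were higher than ASC1a-like cells in 3 of 7 mice, and the log2 difference was -0.16 ± 0.11 (SE, adjusted p = 0.452). The ratio of Pdgfrb to Pdgfra per kilobase accordingly had means of 2.22 ± 1.11 in ASC1a-like, 1.73 ± 0.73 in ASC1b-like and 1.29 ± 0.60 in ASC2-like cells, and was lower in ASC2-like than in ASC1a-like cells in 7 of 7 mice. Of the PDGF genes that could be tested between ASC2-like and ASC1a-like cells, 0 of 3 were called, where the background was 3.17% of 10682 genes, while Pdgfrb and Pdgfd passed 0.05 before adjustment, and neither edgeR's likelihood ratio test nor DESeq2 called any of the 3.

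**Figure D4:**
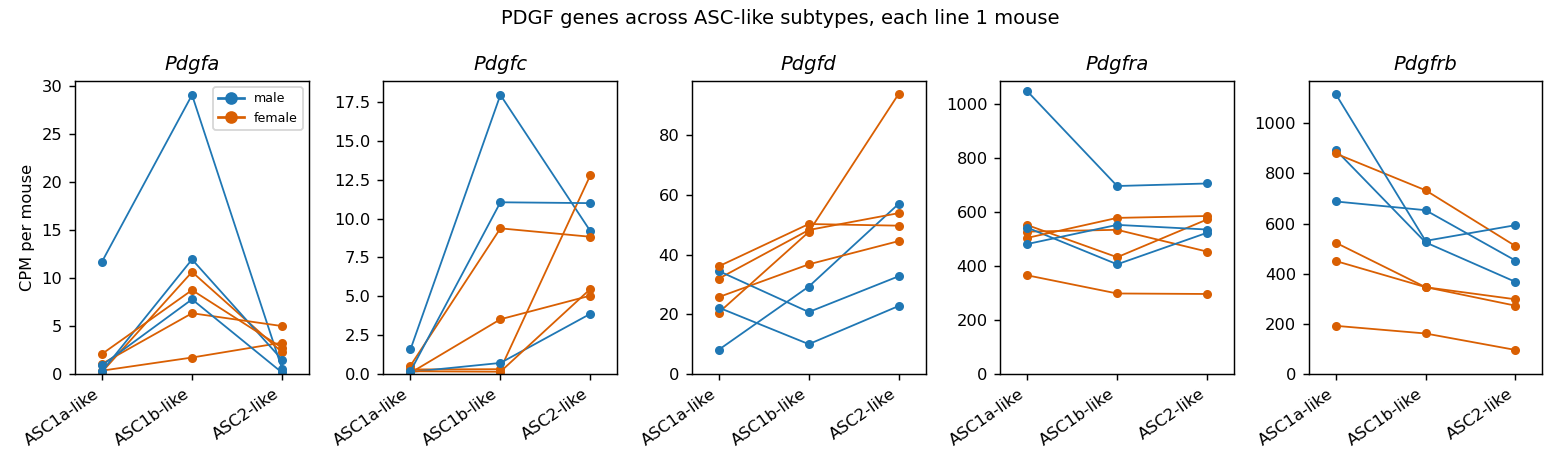
CPM (y axis, linear, starting at 0) of 5 PDGF genes in ASC1a-like, ASC1b-like and ASC2-like cells (x axis), where each line is 1 mouse and colour gives the sex. Pdgfrb falls from ASC1a-like to ASC2-like cells along 7 of 7 lines, and Pdgfa is higher in ASC1b-like than in ASC1a-like cells along 7 of 7 lines.

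Of the ligands, Pdgfa was higher in ASC1b-like than in ASC1a-like cells. ASC1b-like cells had 29.1, 10.6, 1.71, 11.9, 6.32, 8.73 and 7.77 CPM in mice 1, 2, 3, 4, 5, 6/7 and 8, and ASC1a-like cells had 11.7, 0.217, 0.341, 0.284, 1.06, 2.09 and 0.905 CPM. Within each mouse the ASC1b-like value was the higher, while the ranges overlapped because of mouse 1 in ASC1a-like and mouse 3 in ASC1b-like cells. The log2 difference was 3.16 ± 0.61 (SE, adjusted p = 0.0255), the 1 call among 4 PDGF genes tested, where 0.725% of 10763 genes were called. The call was lost with no block for mouse (adjusted p = 0.912), with a minimum of 10 reads (0.0706) or no filter (0.0692), and without mouse 5 (0.0535), 6/7 (0.0568) or 8 (0.0613). Without mouse 2 or 4, Pdgfa did not pass the count filter. It passed through the higher group alone, by the ASC1b-like sums of mice 2 and 4 (1211 and 692 reads). The ASC1a-like sums held 12 to 275 reads. Few cells carried Pdgfa, since 5 cells held 41.3% to 89.8% of its reads in the ASC-like cells of each mouse.

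Pdgfc and Pdgfd had their highest mean levels in ASC2-like cells. Pdgfc ranged from 3.87 to 12.8 CPM in ASC2-like and from 0.0673 to 1.57 CPM in ASC1a-like cells, and the groups did not overlap. Of the 10682 genes in the main test, 148 did not overlap by CPM over all genes with TMM factors. Few cells carried Pdgfc, since 8, 15, 10, 6, 3, 6 and 2 ASC2-like cells kept a read after thinning in mice 1, 2, 3, 4, 5, 6/7 and 8. In the ASC-like cells of each mouse, 5 cells held 49.9% to 97.0% of its reads. Pdgfc was under the count filter of 600 reads and so not in the main test, but with a minimum of 10 reads its log2 difference was 4.82 ± 0.56 (SE, adjusted p = 0.00138), higher in 7 of 7 mice. Pdgfd ranged from 22.8 to 94.0 CPM in ASC2-like and from 8.13 to 36.1 CPM in ASC1a-like cells, was higher in 6 of 7 mice by CPM, and differed by 0.90 ± 0.36 (SE, adjusted p = 0.173), which was not called.

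Sexes were compared for ASC-like and EC-like cells, with the question whether the dimorphism of fat stem cells extends to the PDGF genes. In ASC-like cells, Pdgfra was 823, 488 and 519 CPM in male mice 1, 4 and 8 and 522, 502, 323 and 556 CPM in female mice 2, 3, 5 and 6/7. Pdgfrb was 599, 606 and 791 CPM in the male and 361, 705, 151.8 and 391 CPM in the female mice. Both sets of ranges overlapped, and male cells differed by 0.63 ± 0.30 for Pdgfra and 1.03 ± 0.48 for Pdgfrb on the log2 scale (SE, adjusted p = 0.285 and 0.271). Pdgfd was 31.6, 29.1 and 18.2 CPM in the male and 35.3, 44.3, 52.3 and 45.2 CPM in the female mice, which did not overlap, with a difference of -0.48 ± 0.24 (SE, adjusted p = 0.308). By CPM over all genes with TMM factors, the sexes did not overlap for 1919 of the 11820 genes tested, so that such a gap is common here. None of the 5 PDGF genes tested was called, where the background was 2.23% of 11820 genes, 1 gene (Pdgfa) passed 0.05 before adjustment, and 0 were called with edgeR's likelihood ratio test or DESeq2.

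The sign for Pdgfra and Pdgfc between the sexes followed the scaling, which shifted all genes. With TMM factors the median of all genes was 0.04, Pdgfra 0.63 and Pdgfc 0.86, and with library totals alone they were -0.60, -0.11 and -0.03, so that both genes lay above the median of all genes in either case. The ribosomal RNA share, which enters library totals, was 52.5%, 25.8% and 47.1% in ASC-like cells of the male mice and 27.5%, 24.3%, 46.0% and 30.9% in those of the female mice, and its part in the levels was not tested. In EC-like cells, Pdgfb was 143 and 44.0 CPM in male mice 1 and 8 and 111, 200 and 157 CPM in female mice 2, 5 and 6/7, a log2 difference of -0.59 ± 0.57 (SE, adjusted p = 0.811). Pdgfd differed there by -0.61 ± 0.66 (SE, adjusted p = 0.835). Neither was called, where the background was 0.0494% of 8103 genes, neither passed 0.05 before adjustment, and 0 were called with edgeR's likelihood ratio test or DESeq2.

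**Figure D5:**
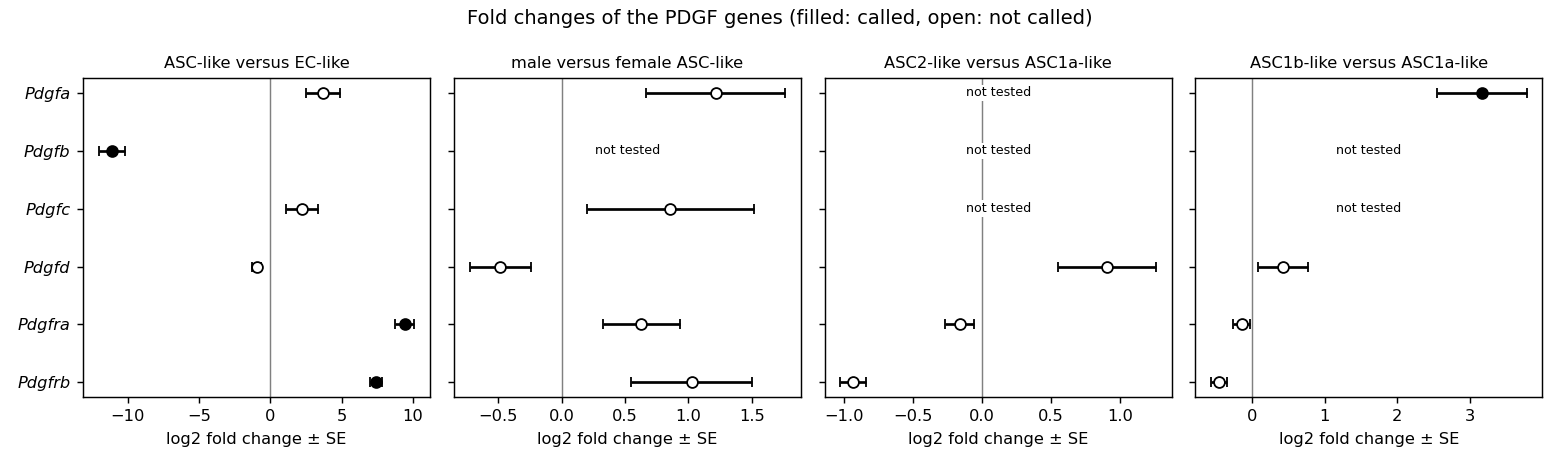
Log2 fold change with SE (x axis) of each PDGF gene (y axis) in 4 comparisons by edgeR's quasi-likelihood test, where filled points were called and genes under the count filter are marked as not tested. Pdgfra, Pdgfrb and Pdgfb were called between ASC-like and EC-like cells, Pdgfa between ASC1b-like and ASC1a-like cells, and none between the sexes or between ASC2-like and ASC1a-like cells.

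Genes that act with the PDGF family were read from lists of 69 genes in all, where up to 3 called genes with the largest change are named per list. Levels in this and the next paragraph are TMM-scaled CPM over all genes. Of 12 tested genes for ligand processing and binding, 7 were higher in ASC-like than in EC-like cells and 1 lower, with a median log2 fold change of 3.47. Pcsk5, a proprotein convertase, was at 83.9 ± 22.1 against 0.0779 ± 0.037 (SD, n = 5) and higher by 10.1 ± 0.42 (SE, adjusted p = 1.91e-05). Pdgfrl, a secreted protein similar to the receptors' outer part, was higher by 7.33 ± 0.66, and Lrp1, an endocytic co-receptor, by 6.77 ± 1.00. Named after their values were seen, Plat, the tissue plasminogen activator that can cut PDGF-C, was higher by 3.54 ± 0.29 and Plau, its urokinase relative, by 4.11 ± 0.59, while Nrp1, a co-receptor better known for VEGF, was lower by 2.79 ± 0.21 (log2 fold change -2.79).

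Of 33 signalling genes downstream of the receptors, 4 were higher and 6 lower in ASC-like cells, with a median of -0.46. Src, a tyrosine kinase bound by active receptors, was higher by 6.11 ± 1.23 and Pik3r2, a regulatory subunit of phosphoinositide 3-kinase, by 3.51 ± 0.99, and the catalytic subunit Pik3cb was at 0.203 against 5.93 (log2 fold change -4.55 ± 0.81). Of 16 brakes on the receptors, 4 were higher and 3 lower, with a median of 0.16. Lrig1, a membrane inhibitor of growth factor receptors, was higher by 6.80 ± 1.00, Spry2, an inhibitor of Ras signalling, by 4.28 ± 0.69, and the phosphatase Ptprj by 3.88 ± 0.97. Of 6 genes of related class III receptors and their ligands, the stem cell factor receptor Kit and its ligand Kitl were lower (log2 fold changes -8.61 ± 1.48 and -4.10 ± 0.30) and Csf1 was higher by 3.84 ± 1.00. With 4 mice in place of 5, the edgeR adjusted p of Pik3r2 was 0.0682 to 0.0798 without mouse 1, 2, 6/7 or 8, that of Csf1 0.0886 and 0.0705 without mouse 1 or 2, and that of Ptprj 0.0524 and 0.0787 without mouse 5 or 6/7. Their log2 fold changes in these fits were 3.27 to 3.93, 3.53 and 3.87, and 3.93 and 3.76. Since 22.7% of all genes were called in this comparison, these counts are given as description.

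Between the subtypes few genes of the lists were called. Between ASC2-like and ASC1a-like cells, Spry1 was lower at 24.0 ± 13.5 against 83.8 ± 52.3 (log2 fold change -1.82 ± 0.22, adjusted p = 5.30e-04) and Spry4 at 6.06 ± 6.09 against 24.7 ± 14.5 (-2.55 ± 0.54, adjusted p = 0.0137), each in 7 of 7 mice. These were the 2 of 16 brakes called, where 3.17% of all genes were called, and the median of the list was -0.68 against -0.02 over all genes. Pdgfrl was lower in ASC2-like cells (-1.61 ± 0.44) and higher in ASC1b-like cells (1.70 ± 0.33), relative to ASC1a-like cells, and Spry4 was lower in ASC1b-like cells (-1.52 ± 0.26). With no block for mouse, Spry1 stayed called (edgeR adjusted p = 0.0254) and the others were lost. The Pdgfrl calls were also lost without mouse 1, 2, 3, 5 or 8 for ASC2-like cells (adjusted p of 0.0784 to 0.0990) and without mouse 1, 2, 4, 6/7 or 8 for ASC1b-like cells (0.0564 to 0.0799), and without mouse 5 the Spry4 change in ASC1b-like cells was under the fold limit. Between male and female ASC-like cells, Ptprj was the 1 gene of the lists called (1.81 ± 0.39, adjusted p = 0.0445), and leaving out any of the 7 mice raised its adjusted p above 0.05.

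Finally, the genes most like each member in pattern were found over 18 sums of a class in a mouse, as Pearson's r of log2(CPM + 1) among 12941 genes. These sums share mice and plates, so r is given as a description. For Pdgfra the closest were Scara5, Penk, Cyp1b1, Fndc1 and Smoc2 (r of 0.981 to 0.989), and for Pdgfrb C1qtnf2, Galnt16, Pla2r1, Nfatc4 and C1qtnf5 (0.955 to 0.969). Pdgfb went with Tcim, Cav2, Sncg, Pnpla2 and Pde4b (0.935 to 0.969) and Pdgfd with Jam3, Ebf1, Arhgap29, Ldb2 and Fermt2 (0.933 to 0.963). Pdgfa went with Myh11, the myosin of smooth muscle, Cacna1c, Ppp1r12b, Dhdds and Gm3470 (0.887 to 0.910), and Pdgfc had the loosest neighbours, Ppp1r21, Snx30, Jade2, Sgpp1 and Parp1 (0.817 to 0.841).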

How the data were processed

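Single cells of the pgWAT stromal vascular fraction were sequenced with Smart-seq2, which reads whole transcripts without molecular identifiers. The authors deposited whole-number read counts per gene and cell. Per their methods and processing notes, reads were demultiplexed with bcl2fastq, aligned with STAR to mm10 and quantified with Salmon through tximport (versions not given in the sources used here). The authors also removed cells by depth, gene number, mitochondrial and spike-in share, and cells that mixed classes, so no doublet caller was run here. The 72 ERCC spike-in rows, 1.98% of reads, were left out, and 0 columns were unmatched to a sample. Reads per cell are given with the data above, and their number limits the precision of shares and of low levels.

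Cells were clustered with Seurat 5.3.0 in R 4.3.3 (scale factor 500000, 3000 variable genes, 14 principal components, resolution 1.1). No PDGF gene was among the variable genes. Clusters were named from marker genes, and those with 3 adipocyte genes among 10 leading genes or a 3-fold mitochondrial share stayed unnamed, limits that were chosen after the clusters were seen. Subtypes were scored within each mouse, and 425 of 2250 cells (18.9%) lay within 0.25 of a boundary. Counts were summed per mouse and class with at least 10 cells. CPM used protein-coding reads, because 6 ribosomal RNA gene rows took unequal shares. Differences were tested with edgeR 4.0.16 (limma 3.58.1), by the quasi-likelihood test with TMM factors on genes above 600 counts in 2 sums, with Benjamini-Hochberg adjustment over all genes tested, and called at an adjusted p below 0.05 and a fold change above 2.6. Class and subtype comparisons had the mouse as a block, since both sums came from the same animal. DESeq2 1.42.0, edgeR's likelihood ratio test, RLE factors, library totals, lower count filters, fits without the block, other class rules and fits leaving out a plate or a mouse were alternatives. For detection, each cell was thinned to 100000 reads, and shares have exact 95% intervals. Python 3.11.15, numpy 2.4.6, scipy 1.17.1 and pandas 2.3.3 were used, and the tests were tried on simulated data first.

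Genes named beside the 6 members were up to 3 called genes with the largest change per list and comparison, and for each member the 5 genes with the highest correlation. The members and lists were chosen with earlier results of these data known.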

Additional observations from a re-analysis of the deposited data

Results flagged for a closer look

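In 37 groups of at least 4 mice, the distance of the highest or lowest mouse from the others was set against the group's range, and 11 values stood apart. Chance would mark about 1 group in 20 if the groups were independent and their values normally distributed. The groups share mice and cells, since subtypes and the female subset are parts of the ASC-like cells. Some Pdgfb values also rest on few reads. That rate therefore does not apply here, and the 11 values are given as description. The causes were not tested.

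Mouse 1 (male) accounted for 7 of these. Its Pdgfa level was the highest of 7 in ASC-like cells (13.1 CPM, where the next mouse had 4.81 CPM), in ASC1a-like cells (11.7 CPM) and in ASC1b-like cells (29.1 CPM). It was also highest for Pdgfra in ASC1a-like cells, at 1049 CPM, and for Pdgfc in ASC1a-like cells, at 1.57 CPM. For Pdgfb it was highest in ASC1b-like cells at 0.293 CPM and in ASC2-like cells at 0.171 CPM, values that rest on 10 reads in all ASC-like cells of this mouse. The ASC-like cells of mouse 1 had the highest ribosomal RNA share of the 7 mice, 52.5%, and the lowest protein-coding share, 31.3%.

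Mouse 5 (female) accounted for 3. The share of its ASC-like cells with both receptors was the lowest, at 56.7%, beside the lowest Pdgfrb level. Its EC-like cells had the highest Pdgfc level, 20.1 CPM, with 97.9% of the reads in 5 of 46 cells. Its ASC1a-like cells had the highest Pdgfb level, 0.264 CPM, from 3 reads in all its ASC-like cells. Among the female mice, mouse 3 had the lowest Pdgfa level in ASC-like cells, 1.77 CPM against 3.89 CPM for the next.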

How the results depend on the processing

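Of the recomputed values for single PDGF genes, 384 kept their direction and their side of the threshold, 8 passed it anew, 6 lost it and 3 reversed. Library totals in place of TMM factors, a scaling chosen after the data were seen, gave male against female ASC-like cells the opposite sign for Pdgfra (-0.11) and Pdgfc (-0.031), moved the median of all genes from 0.04 to -0.60 there, and turned 183 higher and 81 lower genes into 87 and 224. The split of EC-like against mural-like cells went from 5 higher and 67 lower to 70 and 191 (median 0.08 to 0.27), and that of male against female EC-like cells from 1 and 3 to 0 and 3 (median 0.00 to -0.80). With that scaling 44 genes were called between ASC-like and mural-like cells and 261 between EC-like and mural-like cells. With no mouse block, no PDGF call of ASC-like against EC-like cells was lost, Pdgfc between ASC-like and mural-like cells reversed to -1.14, and genes called fell from 339 to 168 (ASC2-like) and from 78 to 6 (ASC1b-like, with 0 PDGF genes called). DESeq2 called 5 PDGF genes between ASC-like and EC-like cells, and DESeq2 and the likelihood ratio test called 2 each between ASC-like and mural-like cells. For all genes, the likelihood ratio test and DESeq2 called 1018 and 1387 (ASC-like against mural-like), 306 and 514 (EC-like against mural-like), 551 and 595 (sexes, ASC-like), 60 and 104 (sexes, EC-like) and 162 and 197 (ASC1b-like). A minimum of 10 counts or no filter gave 21 and 120 genes (EC-like against mural-like), 174 and 170 (sexes, ASC-like), 0 and 0 (sexes, EC-like, where RLE factors gave 1), 1 and 1 PDGF gene (ASC2-like, Pdgfc) and 0 and 0 (ASC1b-like). Leaving out 1 mouse gave 92 to 343 genes between the sexes in ASC-like cells, 0 to 679 in EC-like cells (679 without male mouse 1), 50 to 86 genes and 0 to 1 PDGF genes in ASC1b-like cells, and a sex difference in double detection of -0.51 (without mouse 5) to 13.7 points. For mural-like cells, leaving out a mouse, own-marker classes and cells without endothelial markers left no residual degrees of freedom and gave no value. The cause of these shifts was not tested. Depth limits Pdgfb in ASC-like cells, Pdgfa and Pdgfc in EC-like cells, and all mural-like values.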

Other observations

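The 21 ASC-like cells with a read of the glial gene Sox10 were left out in a fit chosen after the data were seen, and the same 3 PDGF genes were called between ASC-like and EC-like cells.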
